A study of Mus musculus with 2 samples.

Results

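The genes described here are 35 members of the unfolded protein response and of the folding, translocation and degradation machinery of the endoplasmic reticulum (ER), chosen by name from the 31253 genes listed in the deposited matrices. All 35 were found. They comprise 11 chaperones and co-chaperones, 4 disulfide isomerases, 8 genes of ER-associated degradation, 3 genes of protein translocation, 3 stress sensors with the transcription factor Xbp1, and 5 genes of the Atf4 and Ddit3 arm. The 11 chaperones and 4 isomerases together are called the 15 folding genes and are kept apart from the Atf4 and Ddit3 arm throughout.

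The series holds 2 single-cell libraries made from mouse pancreas with BD Rhapsody capture. CP is labelled as treated with Cae, and CP+EVs as treated with Cae and EVs, so both groups share the Cae treatment. The title speaks of chronic pancreatitis and of extracellular vesicles induced by exercise, whereas both libraries carry acute pancreatitis as their condition. No source used here gives the strain, age, dose, timing or number of animals behind a library. With 1 library per group no test was possible, all intervals are 95% intervals that cover counting error only, and each difference is between these libraries.

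The CP library held 13507 barcodes and 51652425 UMIs (median 1417 per barcode), and the CP+EVs library 8845 barcodes and 38532775 UMIs (median 2884). There were 118 barcode sequences found in both. Barcodes were put into classes by their UMIs of marker genes, which include none of the 35 members, and a barcode in which another class reached at least 0.5 of the relative level of the first was left out as mixed. This gave 8 acinar barcodes in CP and 2616 in CP+EVs, 235 and 153 plasma barcodes, and 2323 and 1206 fibroblast barcodes. All 17 acinar markers were higher in the CP+EVs acinar class than in the other gated barcodes, as were 7 of 7 fibroblast markers and 9 of 10 plasma markers in each library, with Ighg1 at 0 in the plasma class of CP. These markers define the classes, so the counts are not independent support for them. Acinar markers made up 0.0527% of kept UMIs in CP and 12.98% in CP+EVs. In the T and NK class, which should lack them, the share was 0.0136% in CP and 2.82% in CP+EVs, so acinar RNA in barcodes of another class differed between the libraries as well. Whether it was free RNA or came from barcodes that held several cells was not tested.

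The ER folds and modifies proteins that are to be secreted or placed in membranes. When unfolded proteins build up there, the sensors Ern1 (IRE1), Eif2ak3 (PERK) and Atf6 start the unfolded protein response. Ern1 splices Xbp1 mRNA, and spliced Xbp1 and cleaved Atf6 raise chaperones and degradation genes, whereas Eif2ak3 slows translation and raises Atf4, which in turn acts on Ddit3 (CHOP), Trib3, Asns and Ppp1r15a (GADD34). Acinar cells and plasma cells are both known as professional secretory cells with a large ER, one making digestive enzymes and the other antibodies. UMI counts per gene do not separate spliced from unspliced Xbp1.

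The promoters of several folding genes share a short element, and a link between it and the levels that follow was not tested. The ER stress response element (ERSE) is CCAAT, then 9 free bases, then CCACG, and its relative ERSE-II is ATTGG, 1 free base and CCACG. Of the 35 members, 30 had a RefSeq promoter (250 bases before to 50 after the gene start, GRCm38.p6), and Manf, Hyou1, Atf6, Derl1 and Sec61a1 had none in the table. On either strand, ERSE was found in 9 members, namely Hspa5, Hsp90b1, Calr, Canx, Dnajc3, Creld2, Pdia6, Syvn1 and Derl3, and in 0.119% of all 32851 promoters. ERSE-II was found in Dnajb11 and Herpud1 and in 0.0365% of promoters. The motifs and the promoters shown were chosen after values were seen. Capitals mark the element, each sequence runs 5′ to 3′ on the gene's strand, and an element on the opposite strand reads as its reverse complement.

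Hspa5 (chr2:34771840-34772089, plus strand, the 250 bases before the start): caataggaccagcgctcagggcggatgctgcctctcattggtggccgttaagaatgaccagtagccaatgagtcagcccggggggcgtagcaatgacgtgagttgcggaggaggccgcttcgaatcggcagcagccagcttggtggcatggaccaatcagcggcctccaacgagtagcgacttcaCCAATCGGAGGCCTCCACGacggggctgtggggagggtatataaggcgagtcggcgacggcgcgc
Hsp90b1 (chr10:86705513-86705676, minus strand): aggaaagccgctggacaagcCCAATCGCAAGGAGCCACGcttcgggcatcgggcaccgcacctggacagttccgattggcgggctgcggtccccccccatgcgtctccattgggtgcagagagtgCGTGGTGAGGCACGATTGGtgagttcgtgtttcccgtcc
Calr (chr8:84847055-84847113, minus strand): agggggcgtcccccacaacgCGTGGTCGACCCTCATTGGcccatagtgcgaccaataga
Pdia6 (chr12:17266471-17266529, plus strand): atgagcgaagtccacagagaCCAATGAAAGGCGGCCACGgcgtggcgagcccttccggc
Creld2 (chr15:88819500-88819558, plus strand): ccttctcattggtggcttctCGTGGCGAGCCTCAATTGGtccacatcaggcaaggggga
Derl3 (chr10:75893222-75893280, plus strand): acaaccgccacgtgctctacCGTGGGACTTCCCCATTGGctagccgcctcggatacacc
Dnajb11 (chr16:22857832-22857874, plus strand): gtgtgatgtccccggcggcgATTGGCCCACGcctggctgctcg
Herpud1 (chr8:94386357-94386407, plus strand): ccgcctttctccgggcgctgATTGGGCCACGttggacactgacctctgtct

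The C/EBP-ATF response element that Atf4 is known to bind was searched as TGATGNAA. It was found in Herpud1, Trib3 and Asns and in 3.97% of promoters, which makes it far more common than ERSE. The search for TGACGTGG found no member (0.676% of promoters), and its shorter form TGACGTG found Hspa5 alone (2.01%). The parts of ERSE are common on their own: CCACG was found in 24 members and 32.8% of promoters, and CCAAT in 22 members and 37.4%. The Asns and Trib3 sites are shown as the ones of the Atf4 and Ddit3 arm.

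Asns (chr6:7693205-7693252, minus strand): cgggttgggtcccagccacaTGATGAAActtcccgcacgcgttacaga
Trib3 (chr2:152344031-152344066, minus strand): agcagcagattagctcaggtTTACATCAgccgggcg

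Plasma barcodes, the antibody-secreting class, held the highest folding sum in each library. The 15 folding genes summed to 21066 CPM (UMIs scaled to the class's total in the usual way) in CP plasma barcodes (20841 to 21292) and to 13910 in CP+EVs plasma barcodes (13705 to 14118). The other gated barcodes held 11528 and 6859 CPM, which gives log2 ratios of 0.87 and 1.02. A member was called where it differed at least 1.5-fold and was measured, meaning a mean of at least 10 CPM and at least 20 UMIs in all. In CP, 8 of the 15 folding genes were called higher and 2 lower in plasma barcodes, where 7.43% of 8228 measured genes were called higher and 58.9% lower. In CP+EVs, 9 were higher and 0 lower, against 5.33% and 66.9% of 7957 measured genes.

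Creld2, an ER stress-induced disulfide isomerase-like protein, was at 1093 CPM in CP plasma barcodes and 122 in the others, 8.93-fold higher (8.45 to 9.43). In CP+EVs it was at 485 and 75.5 CPM, 6.42-fold higher (5.86 to 7.02). Hsp90b1, the ER form of the Hsp90 chaperones, was at 8725 against 2260 CPM in CP and at 5984 against 1375 in CP+EVs. Hspa5 (BiP), the main ER Hsp70 chaperone, was within 1.5-fold of the other barcodes in both libraries, at 3259 against 2564 CPM and 2265 against 1821. These are CPM of all UMIs, by which the median measured gene was at log2 ratios of -0.78 and -0.90. The Hspa5 ratio was above those of 89.7% of measured genes in CP and 92.3% in CP+EVs. Pdia3 and P4hb, isomerases for glycoproteins and for collagen and other clients, were the 2 called lower in CP, at 703 against 1224 CPM and 415 against 629. For P4hb that direction turned with immunoglobulin and other secretory genes out of the total (log2 ratio 0.18) and under median-of-ratios scaling (0.08). Outside secretory genes Pdia3 was at 1254 CPM in CP plasma barcodes and 1268 CPM over all gated barcodes of CP. Neither gene was called lower in these settings or with means of per-barcode CPM.

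Degradation genes had larger ratios in plasma barcodes than folding genes. Their 8 members summed to 3650 CPM in CP plasma barcodes and 669 in the others, a log2 ratio of 2.45, and to 3524 and 936 CPM in CP+EVs, a log2 ratio of 1.91. Derl3, a derlin known from secretory tissues, was at 410 CPM in CP plasma barcodes and 4.15 CPM in the others, 98.7-fold higher (83.5 to 118), and at 400 and 25.9 CPM in CP+EVs, 15.5-fold higher (13.8 to 17.3). The 2 plasma levels were thus close, and the folds differed through the other barcodes, which in CP+EVs include the acinar class at 76.5 CPM. After thinning each barcode to 1000 UMIs, 30.3% of CP plasma barcodes (22.9 to 38.5) and 33.0% of CP+EVs plasma barcodes (23.9 to 43.1) held a Derl3 UMI, against 0.284% and 0.636% of fibroblast barcodes. Without thinning the plasma shares were 41.3% and 57.5%, at median depths of 1517 and 2770 UMIs, and the fibroblast shares 1.25% and 2.90%, at 1336 and 5846 UMIs. Edem1, a lectin that hands misfolded glycoproteins to degradation, was 7.24-fold higher in CP plasma barcodes (1315 against 182 CPM) and 7.12-fold higher in CP+EVs (1025 against 144 CPM). Herpud1, a stress-induced partner of the degradation ligase, was at 987 against 142 CPM in CP and 1358 against 396 CPM in CP+EVs. Derl2 was within 1.5-fold in both libraries (59.0 against 62.7 CPM, and 50.05 against 51.9 CPM) but past it outside secretory genes, at log2 ratios of 0.70 and 0.80.

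Xbp1, the transcription factor that plasma cells need for their secretory ER, was at 3124 CPM in CP plasma barcodes and 281 CPM in the others, 11.1-fold higher (10.8 to 11.5). In CP+EVs it was at 2283 and 256 CPM, 8.92-fold higher (8.54 to 9.31). Among the sensors, Eif2ak3 was 2.10-fold and 1.56-fold higher in plasma barcodes and Atf6 1.77-fold and 2.69-fold, in CP and CP+EVs. Ern1 just reached the threshold in CP (38.3 against 25.7 CPM) and was within 1.5-fold in CP+EVs (27.0 against 18.5 CPM).

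The Atf4 and Ddit3 arm sum had smaller ratios in plasma barcodes than the folding and degradation sums. Its 5 genes summed to 505 CPM in CP plasma barcodes and 428 in the others (log2 ratio 0.24), and to 372 and 488 CPM in CP+EVs (log2 ratio -0.39). The sign of both values depended on the scaling: with secretory genes outside the total they were 1.02 and 0.45, and in CP the mean of per-barcode values gave -0.02. As CPM of all UMIs the median measured gene was itself at log2 ratios of -0.78 in CP and -0.90 in CP+EVs. Asns, asparagine synthetase, was 4.25-fold higher in CP plasma barcodes (55.9 against 13.2 CPM) and within 1.5-fold in CP+EVs (46.1 against 38.2 CPM), where the others include acinar barcodes at 106 CPM. Outside secretory genes the CP+EVs log2 ratio was 1.13.

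**Figure D1:**
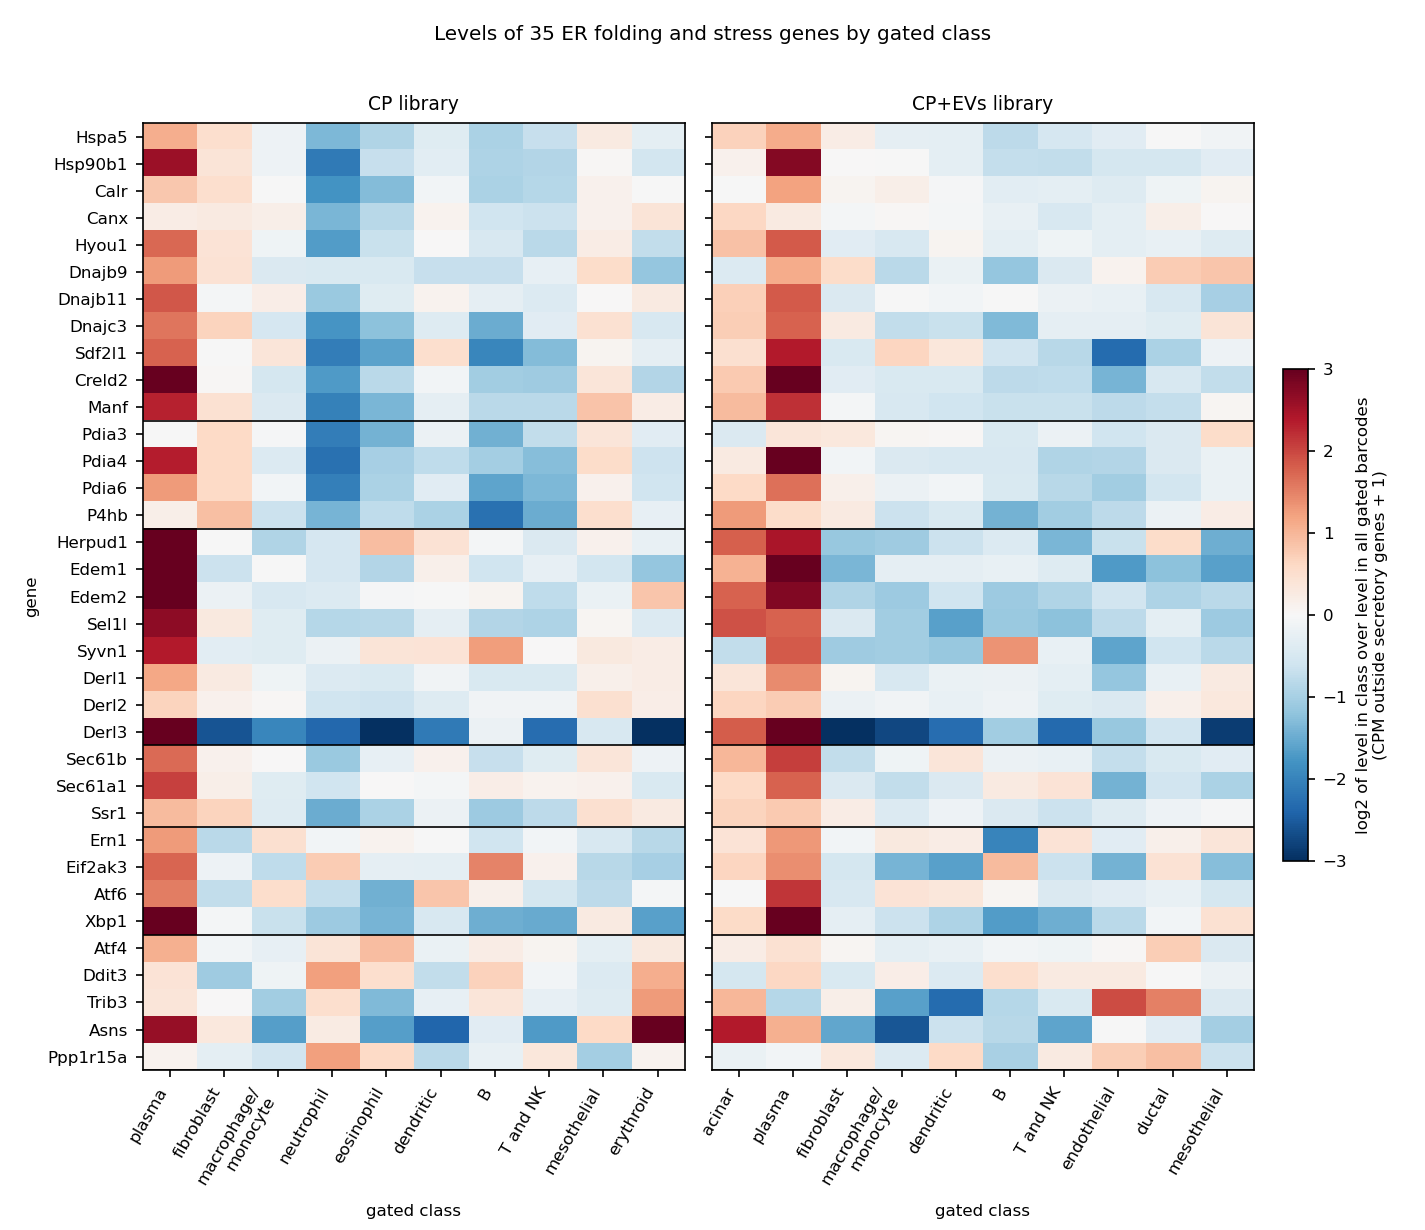
Log2 of each member's level in a class over its level in all gated barcodes of the library, as CPM outside acinar enzyme, Reg, immunoglobulin, haemoglobin and mitochondrial genes, with 1 added (rows are the 35 members by role, columns the classes with at least 50 barcodes, colours stop at 3 either way). Plasma barcodes are dark red for Creld2, Edem1, Derl3 and Xbp1 in both libraries, neutrophils in CP are blue for the folding genes and red for Ddit3 and Ppp1r15a, and Asns is red in the acinar class of CP+EVs.

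Acinar barcodes could be described in CP+EVs only, since CP held 8. As a share of all UMIs their folding genes were not high: the sum was 5067 CPM (5013 to 5120) against 7730 CPM in the other gated barcodes, a log2 ratio of -0.61, with 0 of 15 called higher and 5 lower. Of 8169 measured genes, 2.9% were called higher and 88.7% lower, and the median measured gene had a log2 ratio of -1.45. Acinar enzyme, Reg, immunoglobulin, haemoglobin and mitochondrial genes took 58.7% of the acinar class's UMIs. Outside those genes the folding sum was 12264 CPM in acinar barcodes and the log2 ratio turned to 0.52, with 9 called higher, and under median-of-ratios scaling it was 0.73, with 10 higher. Whether acinar folding genes are higher or lower than in other cells therefore depends on the total they are set against.

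Within the acinar class some members stood clear of that choice. Sel1l, the scaffold of the main ER degradation ligase, was at 387 CPM in acinar and 145 CPM in other barcodes, 2.68-fold higher (2.54 to 2.82). Herpud1 was at 788 and 336 CPM, 2.35-fold higher (2.27 to 2.43). Derl3 was 2.46-fold higher (76.5 against 31.1 CPM) and Edem2 2.33-fold (64.4 against 27.7 CPM). These 4 of the 8 degradation genes were higher under each scaling tried, with log2 ratios from 1.22 to 1.42 as CPM and from 2.35 to 2.54 outside secretory genes. Syvn1 (HRD1), the ligase itself, was lower, at 5.44 against 21.7 CPM, and its log2 ratio of -1.97 became -0.85 outside secretory genes and -0.64 under median-of-ratios scaling.

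Asns was the member with the highest acinar ratio, at 106 CPM in acinar and 19.5 CPM in other barcodes, 5.41-fold higher (4.81 to 6.09). The other arm genes did not follow it: Atf4 was at 207 and 380 CPM, and Ppp1r15a at 40.8 and 103 CPM. The Atf4 direction turned with the scaling (log2 ratio -0.87 as CPM, 0.25 outside secretory genes), while Ppp1r15a was -1.34 and -0.22. The immediate early and dissociation-linked genes, a list of 22, were at 8206 CPM in the acinar class against 23678 CPM, as CPM of all UMIs. By that measure the median measured gene was itself at a log2 ratio of -1.45. The Ppp1r15a ratio was above those of 58.4% of measured genes. Ddit3 was at 3.68 CPM in acinar barcodes. This gene is listed under a pair of overlapping entries, one of which held 0 UMIs, so reads that fall in both may have been lost and its levels are uncertain.

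Fibroblast barcodes, matrix-secreting cells, held the second highest folding sum in each library among the classes with at least 50 barcodes, as CPM of all UMIs. Outside secretory genes the acinar class of CP+EVs, at 12264 CPM, was above fibroblasts at 9838. As CPM of all UMIs the fibroblast sum was 16972 CPM in CP (16901 to 17043) against 9720 in the other gated barcodes, a log2 ratio of 0.80, and 9316 CPM in CP+EVs (9249 to 9383) against 6388, a log2 ratio of 0.54. In CP, 11 of 15 folding genes were called higher, where 23.4% of 8641 measured genes were called higher and 32.5% lower. In CP+EVs 5 were higher, where 28.7% of 8730 genes were called higher and 23.7% lower. The 5 became 1 outside secretory genes and 8 with per-barcode means. P4hb, which is also the beta subunit of the collagen prolyl hydroxylase, was at 1180 against 385 CPM in CP, 3.07-fold higher (2.99 to 3.14), and at 458 against 272 CPM in CP+EVs, 1.69-fold higher (1.62 to 1.76). Of the 8 degradation genes, 0 were called higher in either library, and 2 were called lower in CP and 5 in CP+EVs. Derl3 was at 2.39 CPM in CP fibroblast barcodes and 4.50 CPM in CP+EVs ones.

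Neutrophils and eosinophils, described in CP, combined a low folding sum with a high sum of the Atf4 and Ddit3 arm. The folding sum of 3822 CPM in neutrophils (3773 to 3872) was the lowest of the 10 classes described in CP, and eosinophils held 6314 CPM. Their arm sum was 709 CPM (687 to 730), and that of eosinophils 771 CPM (664 to 891), compared with 331 CPM in mesothelial barcodes (308 to 355) and 674 CPM in erythroid-gated ones (569 to 794), whose interval overlaps both. Ppp1r15a, which restores translation after stress, was at 228 CPM in neutrophils (216 to 240) and at 92.9 CPM over all gated barcodes. Ddit3 was at 49.1 CPM in neutrophils (43.6 to 55.1) and at 19.6 CPM over all gated barcodes, subject to the limit on that gene. In eosinophils Atf4 was at 592 CPM (499 to 698), where the whole library's gated barcodes were at 302. Immediate early genes, which Ppp1r15a is often induced with, were at 26406 CPM in neutrophils and 15325 CPM in eosinophils, and their part in the arm's level was not tested.

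Single high members appeared elsewhere. Asns was at 164 CPM (114 to 228) in the 79 erythroid-gated barcodes of CP, from 35 UMIs, and at 14.8 CPM over all gated barcodes. Eif2ak3 was at 108 CPM in B barcodes of CP and 109 CPM in those of CP+EVs, and at 78.5 and 75.5 CPM in plasma barcodes. That order turned outside secretory genes, where B barcodes were at 116 and 122 CPM and plasma barcodes at 140 and 167 CPM. Ductal barcodes, seen in CP+EVs, had the highest arm sum of that library, at 833 CPM (767 to 902), with Atf4 at 600 CPM. Their immediate early genes were at 46554 CPM, the highest of any class described in that library.

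**Figure D2:**
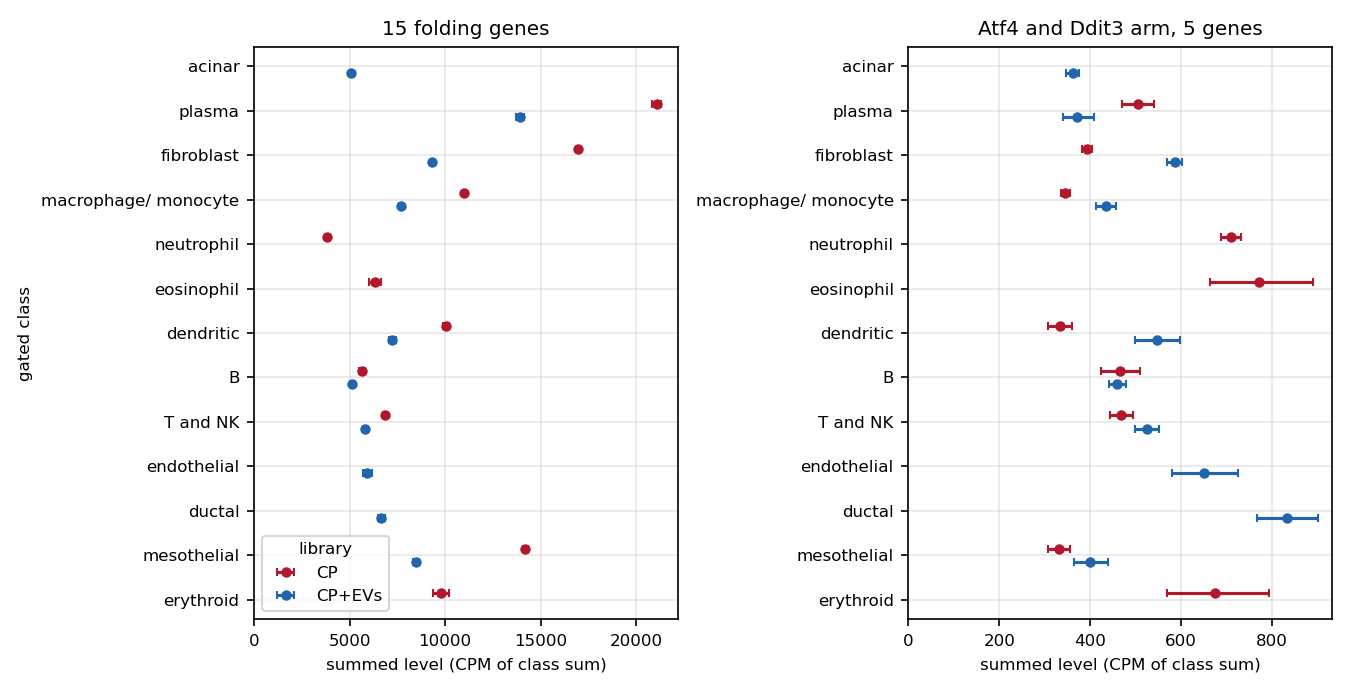
Summed level of the 15 folding genes (left) and of the 5 genes of the Atf4 and Ddit3 arm (right) in CPM of the class sum, by gated class and library (CP red, CP+EVs blue, bars are exact Poisson 95% intervals for counting error). The folding sum runs from 3822 in CP neutrophils to 21066 in CP plasma barcodes and is lower in CP+EVs in each of the 7 classes with both libraries, whereas the arm sum does not follow that order.

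Between the libraries, the folding genes were lower in CP+EVs than in CP in fibroblast and mesothelial barcodes most of all. The question asked is how the 2 libraries differ within 1 class, and 7 classes had at least 50 barcodes in both. In fibroblast barcodes the folding sum was 16972 CPM in CP and 9316 in CP+EVs, 1.82-fold lower (1.81 to 1.84), and 12 of 15 genes were called lower and 0 higher. Of 8260 measured genes, 13.2% were called lower and 11.8% higher, and the median measured gene was at a log2 ratio of 0.03, against -0.92 for the folding genes. In mesothelial barcodes, which line the surface of the organ, the sum was 14202 CPM in CP and 8475 in CP+EVs, with 12 of 15 lower. There 18.4% of 8810 measured genes were called lower and 17.5% higher, and the medians were -0.01 for all genes and -0.997 for the folding genes. Over the alternatives the fibroblast count ran from 11 to 14 and the mesothelial count from 11 to 12.

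Calr, the calcium-binding chaperone of glycoproteins, was at 2675 CPM in CP fibroblast barcodes and 1014 CPM in CP+EVs ones, 2.64-fold lower (2.58 to 2.70). Pdia4 was at 418 and 150 CPM, 2.79-fold lower (2.62 to 2.98). P4hb was at 1180 and 458 CPM and Pdia3 at 1845 and 811 CPM. Hsp90b1 was at 3287 and 1887 CPM, 1.74-fold lower (1.71 to 1.77). Hspa5 was at 3745 and 2564 CPM, 1.46-fold lower (1.44 to 1.48), which is short of the 1.5-fold used here, as was Canx, the membrane-bound partner of Calr, at 993 and 714 CPM. Dnajb9 (ERdj4), a co-chaperone that holds Ern1 inactive, was the exception among the 15, at 350 CPM in CP and 403 CPM in CP+EVs.

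The mesothelial values ran along with these. Pdia4 was at 404 CPM in CP and 136 CPM in CP+EVs, 2.97-fold lower (2.52 to 3.54), and Creld2 at 203 and 64.9 CPM, 3.11-fold lower (2.45 to 4.03). Calr was at 2032 and 1001 CPM, and Hspa5, called here, at 3125 and 2009 CPM, 1.56-fold lower (1.48 to 1.63). Manf, a secreted ER stress-induced factor, was at 633 and 288 CPM. Dnajb9 was again not lower, at 378 and 484 CPM. The median mesothelial barcode had 2042 UMIs in CP and 6775 in CP+EVs. Fibroblast markers made up 3.42% of the mesothelial class's UMIs in CP and 1.49% in CP+EVs. The part of fibroblast RNA in the mesothelial ratios was not tested.

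Depth and class makeup moved beside these ratios. The median barcode had 1336 UMIs in CP and 5846 in CP+EVs among fibroblasts, and fibroblast markers made up 6.56% and 4.11% of the class's UMIs. Acinar markers made up 0.0154% and 1.72% of them. After each barcode was thinned to 1000 UMIs, the median fibroblast barcode held 16 folding UMIs in CP (quartiles 12 and 20, 1406 barcodes) and 8 in CP+EVs (6 and 11, 1101 barcodes), with 917 and 105 shallower barcodes left out. The log2 ratio of the sum, -0.87, was -0.88 with a gate free of collagens and -0.71 in barcodes with no UMI of Tnc, Cthrc1 or Postn, which mark matrix-producing fibroblasts. With acinar RNA subtracted it was -0.84. Differences in fibroblast state beyond these genes were not tested.

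**Figure D3:**
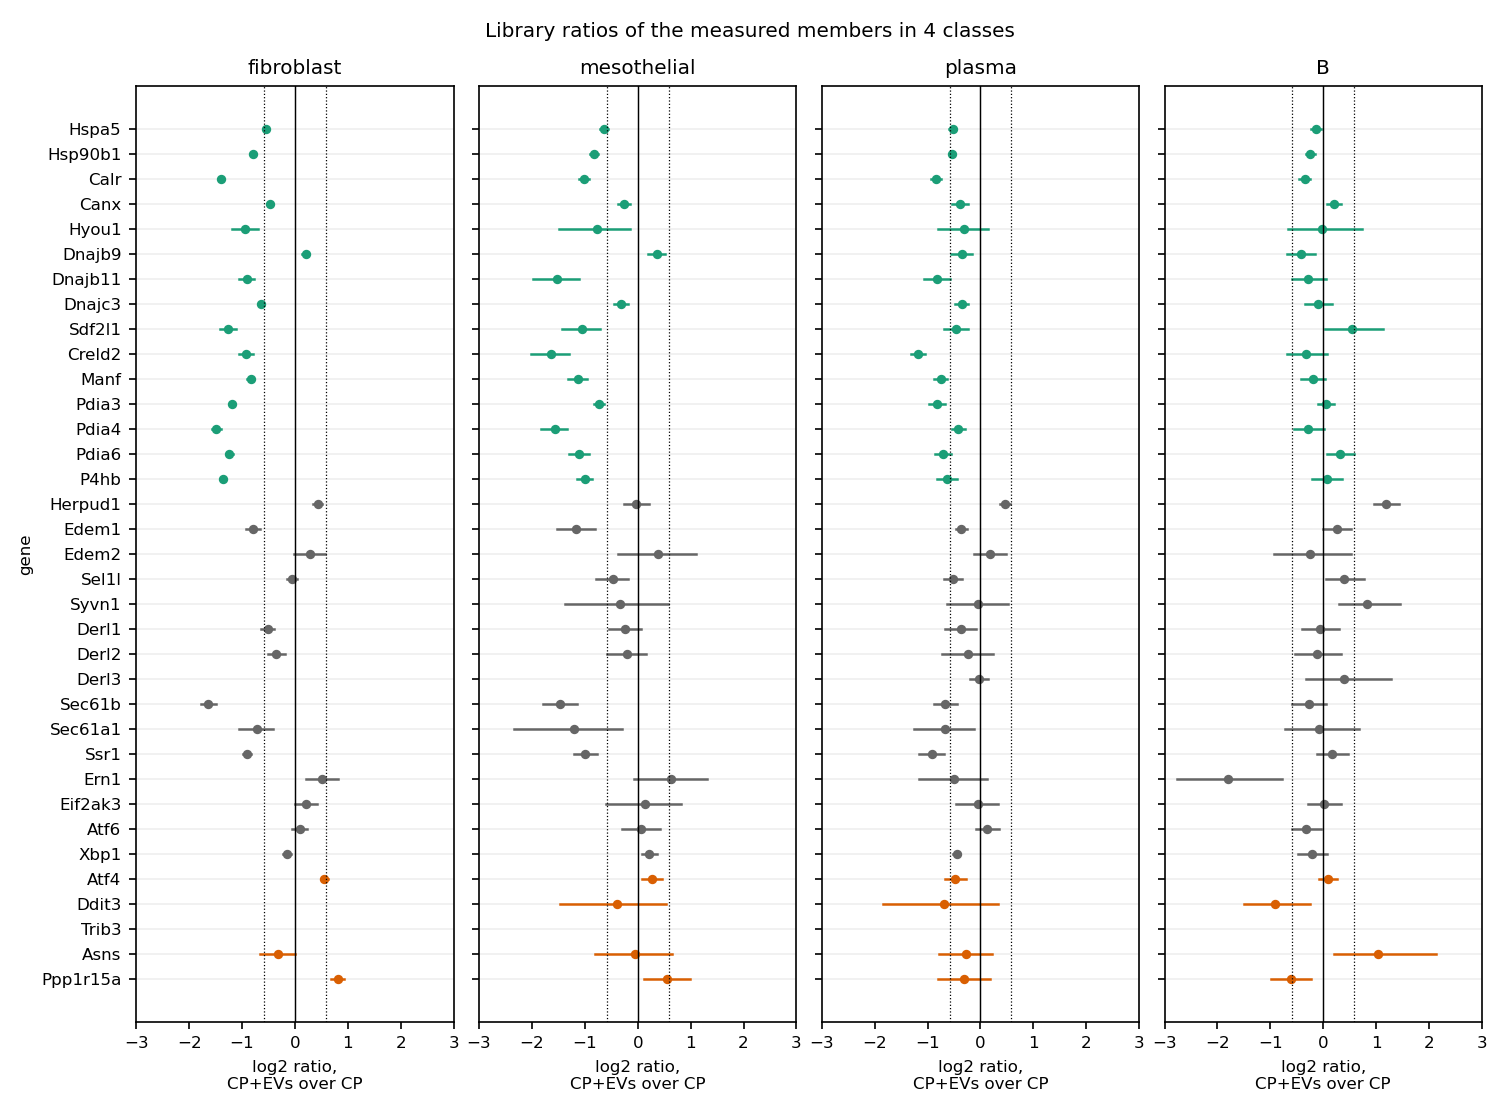
Log2 ratio of CP+EVs over CP for each measured member in fibroblast, mesothelial, plasma and B barcodes, with 95% intervals for counting error (green for folding genes, orange for the Atf4 and Ddit3 arm, grey for the rest, dotted lines at 1.5-fold). In fibroblast and mesothelial barcodes most green points lie left of the dotted line, down to -1.48 and -1.64, while in B barcodes all green points lie between the dotted lines. The 4 classes shown were chosen after values were seen.

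The other 5 classes showed smaller ratios. In plasma barcodes 7 of 15 folding genes were called lower and 0 higher, with 28.2% of 6872 measured genes called lower and 5.94% higher. The median measured gene was itself at -0.30 and the folding genes at -0.54. Secretory and mitochondrial genes took 43.9% of plasma UMIs in CP and 54.9% in CP+EVs, and with them outside the total, or with median-of-ratios scaling, 1 of 15 folding genes was lower. In macrophage and monocyte barcodes 6 were lower and 0 higher (21.8% of 7707 measured genes lower, 9.96% higher, median -0.22 for all genes and -0.53 for the folding genes). In dendritic barcodes 6 were lower and 1, Dnajb9, higher (14.5% of 8248 measured genes in each direction, median -0.05 and -0.51), and 10 were lower when mixed barcodes were put in.

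Lymphocytes stayed within the threshold. In T and NK barcodes 0 of 15 folding genes were called in either direction (7.22% of 8449 measured genes lower, 6% higher), with sums of 6867 CPM in CP and 5790 in CP+EVs. In B barcodes 0 of 15 were called (15% of 8261 measured genes lower, 14.2% higher), with sums of 5639 and 5145 CPM. The log2 ratios of these sums were -0.25 and -0.13, whose counting error does not include 0 but whose error between animals is unknown. Across the 7 classes, 8 of the 15 folding genes had a ratio below 0 in every class, namely Hspa5, Hsp90b1, Calr, Dnajb11, Dnajc3, Creld2, Manf and Pdia4, and 0 were at least 1.5-fold lower in every class. The median measured gene was itself below 0 in each class but fibroblasts, from -0.30 in plasma to -0.005 in mesothelial barcodes. The share of all measured genes below 0 in every class is not given here, so the 8 cannot be set against it. All 7 classes come from the same pair of libraries, so they are not independent of each other.

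Members with ERSE or ERSE-II in the promoter included genes called lower and genes within the threshold. In fibroblast barcodes 9 of these 11 members were measured, 6 were called lower and the median log2 ratio was -0.80. Of the 19 members with a promoter but neither element, 17 were measured, 7 were lower and the median was -0.32. Of all measured genes, 13.2% were called lower there. The medians with and without an element were -0.73 and -0.30 in mesothelial and -0.51 and -0.34 in dendritic barcodes. They were -0.49 and -0.31 in macrophage and monocyte and -0.53 and -0.46 in plasma barcodes. In B barcodes they were -0.09 and -0.05, and in T and NK barcodes -0.23 and -0.24. The element is not spread evenly over roles, since 8 of the 11 and 5 of the 19 are folding genes. Herpud1, with ERSE-II at bases -52 to -42 from its start, was called higher in 3 of 7 classes, and Dnajb11, with the same element at 7 to 17 after its start, was lower in 5 of 7 classes.

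Translocation genes were called lower in some of the classes. Sec61b, a subunit of the channel through which new proteins enter the ER, was at 193 CPM in CP fibroblast barcodes and 61.9 CPM in CP+EVs ones, 3.11-fold lower (2.82 to 3.43). Ssr1, a subunit of the translocon-associated complex, was at 430 and 228.5 CPM there, 1.88-fold lower (1.78 to 1.98). All 3 translocation genes were called lower in fibroblast, mesothelial and plasma barcodes, where 13.2%, 18.4% and 28.2% of measured genes were called lower, with sums at log2 ratios of -1.085, -1.15 and -0.78. In plasma barcodes the calls of Sec61b and Sec61a1 were lost outside secretory genes (both at a log2 ratio of -0.35), while Ssr1 stayed past 1.5-fold at -0.61. In dendritic barcodes 0 of the 3 were called. In plasma barcodes Sec61b was at 333 CPM in CP and 210 CPM in CP+EVs. The 4 isomerases were all lower in fibroblast, mesothelial and macrophage barcodes, with sums at -1.27, -0.94 and -0.82.

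Degradation sums, as CPM of all UMIs, were closer between the libraries than folding sums in fibroblast and plasma barcodes. In fibroblast barcodes 1 of 6 measured members was called lower, where 13.2% of 8260 measured genes were called lower and 11.8% higher. This was Edem1, at 144 CPM in CP and 82.9 CPM in CP+EVs. The sum of the degradation genes was at a log2 ratio of -0.12. Sel1l was at 181.5 and 176 CPM there. In plasma barcodes 0 of 8 were called as CPM of all UMIs, where 28.2% of 6872 measured genes were called lower and 5.94% higher. The sums were 3650 and 3524 CPM, and Derl3 was at 410 and 400 CPM. Outside secretory genes the sum was higher in CP+EVs, at 6507 CPM in CP and 7820 CPM in CP+EVs. There, Herpud1 was past 1.5-fold, at 1760 and 3013 CPM, and Derl3 was at 731 and 888 CPM.

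Herpud1 differed in direction from most chaperones. It was at 94.4 CPM in CP macrophage and monocyte barcodes and 245 CPM in CP+EVs ones, 2.59-fold higher (2.38 to 2.83), at 162 and 368 CPM in B barcodes, 2.27-fold higher (1.93 to 2.69), and at 129 and 196 CPM in T and NK barcodes, 1.52-fold higher (1.33 to 1.74). It was above 0 on the log2 scale in 6 of 7 classes, with -0.03 in mesothelial barcodes. Herpud1 is also high in acinar barcodes. With acinar RNA subtracted in proportion to acinar markers, the log2 ratios of 1.37, 1.18 and 0.61 became 1.19, 1.05 and 0.28, so the T and NK value no longer reached 1.5-fold.

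Sensors and Xbp1 were mostly within 1.5-fold. Xbp1 was called in 0 of 7 classes, with log2 ratios from -0.45 in plasma barcodes to 0.22 in mesothelial barcodes. Ern1 was called higher in mesothelial barcodes, at 18.6 CPM in CP and 28.7 CPM in CP+EVs, though its interval of 0.955 to 2.48-fold includes 1. It was lower in B barcodes, at 16.4 and 4.73 CPM, 3.51-fold (1.72 to 6.81). Atf6 and Eif2ak3 were each called lower in dendritic barcodes, at 244 and 149 CPM and at 32.1 and 18.4 CPM, the latter with an interval of 0.994 to 3.24-fold that includes 1.

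As CPM of all UMIs, the Atf4 and Ddit3 arm was higher in CP+EVs in fibroblast and dendritic barcodes and lower in plasma barcodes. In fibroblast barcodes its sum was 393 CPM in CP and 585 CPM in CP+EVs, a log2 ratio of 0.57, and in dendritic barcodes 333 and 547 CPM, a log2 ratio of 0.71. It was at 0.33 in macrophage and monocyte, 0.27 in mesothelial, 0.16 in T and NK, -0.02 in B and -0.44 in plasma barcodes. In plasma barcodes the median measured gene was itself at -0.30. The plasma arm sum was at -0.125 outside secretory genes and at -0.16 with means of per-barcode CPM. Atf4 was above 0 in 6 of 7 classes and called in 0 of 7. In fibroblast barcodes it was at 288 CPM in CP and 424 CPM in CP+EVs, 1.47-fold higher (1.41 to 1.54).

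Ppp1r15a was called higher in fibroblast barcodes, at 76.3 CPM in CP and 133 CPM in CP+EVs, 1.75-fold (1.60 to 1.91), and in dendritic barcodes, at 53.6 and 162 CPM, 3.02-fold (2.32 to 3.93). It was called lower in B barcodes, at 77.9 and 51.0 CPM, 1.53-fold (1.17 to 1.98). The 22 immediate early and dissociation-linked genes had log2 ratios of their sum of 0.46 in fibroblast, 0.76 in dendritic and -0.09 in B barcodes, and their part in the Ppp1r15a ratios was not tested. Ddit3 was below 0 in all 6 classes where it was measured and called lower in plasma and B barcodes, though the plasma interval of 0.797 to 3.60-fold includes 1. Trib3, a pseudokinase that Ddit3 induces, was measured in 0 of 7 classes.

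Asns was called higher in dendritic barcodes, at 2.10 CPM in CP, from 4 UMIs, and 28.7 CPM in CP+EVs, 12.4-fold (4.71 to 54.0), and in B barcodes, at 11.3 and 24.0 CPM, 2.05-fold (1.15 to 4.38). Asns is the most acinar-high member, and with acinar RNA subtracted the log2 ratio was 3.47 in dendritic and 0.62 in B barcodes, from 3.63 and 1.03. In fibroblast barcodes it was at 18.8 and 14.98 CPM.

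Other genes of the pathway, from lists that hold no member, gave a similar split by role in fibroblast barcodes. Of 21 measured further folding and redox genes, 11 were called lower and 1 higher, where 13.2% of all measured genes were called lower and 11.8% higher. Of 21 translocation and glycosylation genes, 13 were lower and 0 higher, and of 19 genes for vesicles out of the ER, 7 were lower and 0 higher. Fkbp11, an ER prolyl isomerase of secretory cells, was at 123.6 CPM in CP and 29.6 CPM in CP+EVs, 4.17-fold lower (3.64 to 4.81). Ssr2 was at 207 and 64.8 CPM, and Kdelr3, a receptor that returns chaperones to the ER, at 117 and 47.6 CPM. The one called higher was Pdia2, known as the pancreatic isomerase, at 0.154 CPM in CP and 21.5 CPM in CP+EVs, where acinar barcodes held it at 603 CPM.

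None of 12 further degradation genes was called in fibroblast barcodes, and none of 7 measured sensors and factors. Of 25 measured Atf4 targets and stress factors, 6 were called higher and 7 lower, so this list was split. Stc2, a stress-induced glycoprotein, was at 6.95 CPM in CP and 49.1 CPM in CP+EVs, 7.03-fold higher (5.61 to 8.99). Slc7a11, the cystine transporter, was at 22.5 and 0.499 CPM, 40.2-fold lower (17.4 to 167). In mesothelial barcodes 15 of 21 translocation and glycosylation genes were lower and 0 higher, where 18.4% of measured genes were called lower and 17.5% higher. In B barcodes 1 of 21 was lower and 0 higher, where 15% were called lower and 14.2% higher.

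Among acinar barcodes, Pdia2 was 17.8-fold higher than in the other gated barcodes (603 against 34.0 CPM) and Bhlha15 (Mist1), a factor of secretory cells, 11.0-fold higher (95.6 against 8.65 CPM). Nupr1, a stress factor first described in pancreatitis, was at 805 against 93.2 CPM, 8.64-fold higher (8.23 to 9.08). In CP plasma barcodes the further genes with the largest ratios included Txndc5 at 1247 against 96.8 CPM and Sec11c, of the signal peptidase, at 1723 against 164 CPM.

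Single barcodes differed most within the plasma class. After thinning to 1000 UMIs, CP plasma barcodes held from 2 to 65 folding UMIs, with a median of 15 and quartiles of 8.25 and 25 (142 barcodes, 93 shallower ones left out). CP+EVs plasma barcodes had a median of 10 (7 and 15.2, 100 barcodes, 53 left out). The variance over the mean was 10.02 and 6.05 in these, against 2.64 and 2.46 in fibroblast barcodes. Split after values were seen, the 71 CP plasma barcodes at or under the median of plasma marker UMIs had a median of 22 folding UMIs and the 71 above it 11, while in CP+EVs the values were 9.5 and 10.5 (50 barcodes each). The median was 49 plasma marker UMIs in CP and 96 in CP+EVs. Both kinds of UMI are counted within the same 1000, so more plasma marker UMIs leave fewer for other genes. The part of this in the split was not tested. Acinar barcodes of CP+EVs had a median of 4 (3 and 7, 1819 barcodes) and CP neutrophils of 3 (2 and 5, 2281 barcodes).

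**Figure D4:**
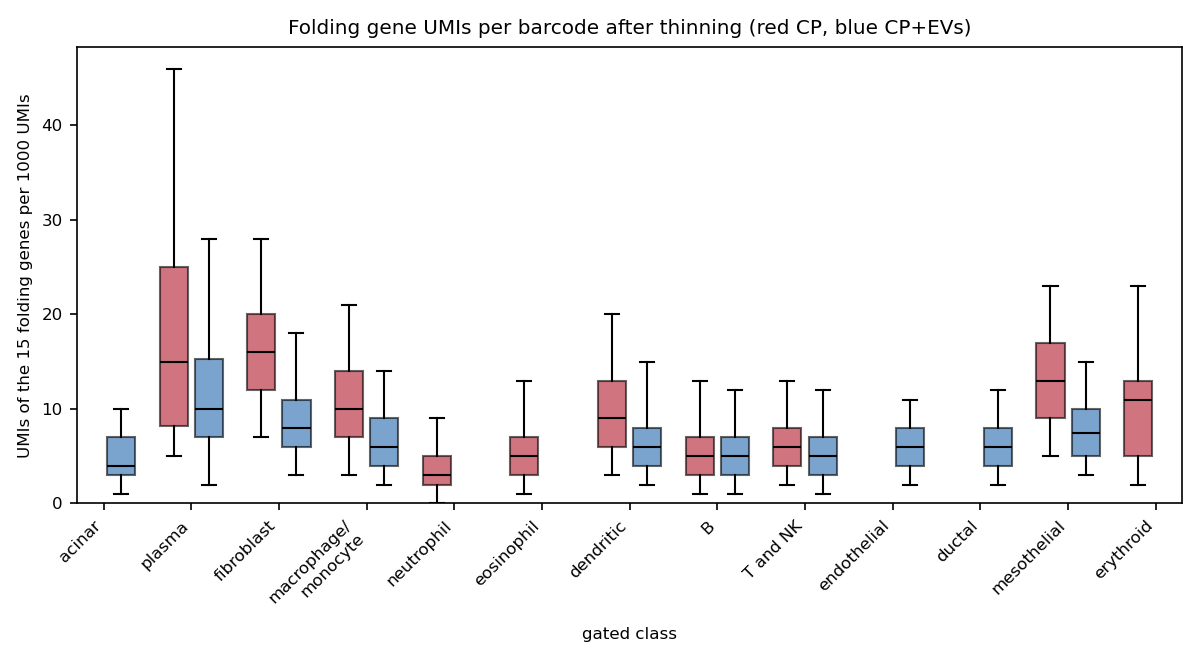
UMIs of the 15 folding genes per barcode after thinning to 1000 UMIs, by gated class (CP red, CP+EVs blue, boxes are quartiles with the median, whiskers the 5th and 95th percentiles of barcodes). Fibroblast medians are 16 in CP and 8 in CP+EVs, B medians are 5 in both, and CP plasma barcodes spread the widest.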

How the data were processed

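The deposited matrices hold UMI counts per gene and barcode, not normalised, per the file headers. CASAVA 1.8, UMI-tools, Seurat and the build mm10 are named, without roles, in the submitters' processing notes. No source used here names the aligner, the annotation or the way cells were called. The lowest barcode held 501 UMIs. Barcodes under 200 genes or over 25% mitochondrial UMIs were dropped, and the rest kept (13409 CP, 8799 CP+EVs). A class needed at least 3 UMIs from at least 2 of its markers and a marker share at or above the higher library-wide share, and 10810 and 6896 barcodes were gated. Mixed barcodes (1405 and 1035) were left out, which stood in for doublet removal, and 1194 and 868 stayed ungated. UMIs were summed per class and library and given as CPM with exact Poisson 95% intervals. Log2 ratios add 0.5 counts, and ratio intervals are conditional on the summed count. Shares have exact Clopper-Pearson intervals. All members and, from each further list, the 2 largest ratios could be named. Members and lists were chosen with earlier results of these data known. Python 3.11.15, numpy 2.4.6, scipy 1.17.1, pandas 2.3.3 and matplotlib 3.10.9 were used, and ratios were tested on simulated counts. Gene positions came from GENCODE vM21 and promoters from RefSeq. Read on the gene strand, 14 of 15 plus-strand and 14 of 16 minus-strand member promoters ended in the start of a transcript. Alternatives covered filters, gates, scaling, subtraction of acinar RNA and, added after seeing the data, shared barcodes.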

Additional observations from a re-analysis of the deposited data

Results flagged for a closer look

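Ppp1r15a was at least 1.5-fold apart between the libraries in opposite directions in a pair of classes. Its log2 ratio of CP+EVs over CP was 1.59 in dendritic barcodes and -0.62 in B barcodes, and neither interval includes a ratio of 1. With 1 library per group the difference between the classes was not tested.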

How the results depend on the processing

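Values are for CP+EVs over CP within a class unless a comparison with the other gated barcodes of a library is named, and given are those that moved by more than counting error or, for counts, by over 1.5 times. The calls of lower folding genes in fibroblast (11 to 14 of 15) and mesothelial barcodes (11 to 12) stayed close under each alternative, the plasma count was 7 but 1 under 2 scalings, and the acinar direction turned with the scaling. The median log2 ratio that median-of-ratios scaling takes as 0 was -0.298 in plasma, -0.13 in macrophage and monocyte barcodes, -1.34 in acinar over others, -0.68 and -0.90 in plasma over others and -0.16 in fibroblast over others in CP. The folding and arm sums are given as log2 ratios. The arm sum changed sign over the alternatives in B barcodes (-0.04 to 0.04), acinar over others and plasma over others. The cause of these shifts was not tested beyond what each setting is. No paired analysis was possible because each group holds 1 library, and for the same reason no replicate could be left out and no spread between animals is known. Barcodes with about 1000 UMIs hold few UMIs of a gene near 10 CPM, so Trib3, Ddit3, Derl3 and Syvn1 were measured in few classes or imprecisely.

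With the gate level doubled, the folding sum was at -0.52 (plasma), -0.96 (fibroblast), -0.496 (macrophage and monocyte), -0.58 (dendritic), -0.29 (T and NK), -0.52 (acinar over others in CP+EVs), 0.81 (plasma over others in CP), 1.198 (plasma over others in CP+EVs), 0.82 (fibroblast over others in CP) and 0.48 (fibroblast over others in CP+EVs), and the arm sum was at 0.65 (fibroblast) and 0.45 (fibroblast over others in CP+EVs). There, folding genes called lower numbered 1 (T and NK and fibroblast over others in CP+EVs). There, folding genes called higher numbered 0 (dendritic) and 1 (B and acinar over others in CP+EVs). There, arm genes called higher numbered 1 (fibroblast over others in CP) and 2 (fibroblast). With the gate level at 0.5 of its value, the folding sum was at -0.89 (fibroblast), 0.81 (fibroblast over others in CP) and 0.53 (fibroblast over others in CP+EVs). Here, folding genes called higher numbered 0 (dendritic) and 1 (B). Here, arm genes called higher numbered 2 (fibroblast). With mixed barcodes put in their top class, the folding sum was at -0.62 (dendritic), -0.28 (T and NK), -0.56 (acinar over others in CP+EVs), 0.79 (plasma over others in CP) and 0.76 (fibroblast over others in CP). In that setting, folding genes called lower numbered 10 (dendritic). In that setting, folding genes called higher numbered 0 (dendritic) and 1 (B). With secretory and mitochondrial genes outside the total, the folding sum was at -0.28 (plasma), -0.84 (fibroblast), -0.48 (macrophage and monocyte), -0.0777 (B), -0.19 (T and NK), -0.71 (mesothelial), 0.515 (acinar over others in CP+EVs), 1.65 (plasma over others in CP), 1.86 (plasma over others in CP+EVs), 0.775 (fibroblast over others in CP) and 0.19 (fibroblast over others in CP+EVs), and the arm sum was at -0.125 (plasma), 0.604 (acinar over others in CP+EVs), 1.02 (plasma over others in CP), 0.45 (plasma over others in CP+EVs) and 0.0306 (fibroblast over others in CP+EVs). There, folding genes called lower numbered 0 (acinar over others in CP+EVs and plasma over others in CP), 1 (plasma) and 2 (fibroblast over others in CP+EVs). There, folding genes called higher numbered 1 (B and fibroblast over others in CP+EVs) and 9 (acinar over others in CP+EVs). There, arm genes called higher numbered 0 (fibroblast over others in CP+EVs), 1 (mesothelial) and 2 (plasma over others in CP and plasma over others in CP+EVs). Single genes whose direction turned (acinar over others in CP+EVs) were Hsp90b1 at 0.14, Pdia4 at 0.31, Derl1 at 0.42, Ern1 at 0.51 and Atf4 at 0.25. Single genes whose direction turned (plasma over others in CP) were P4hb at 0.18 and Ppp1r15a at 0.12. With means of per-barcode CPM, the folding sum was at -0.52 (plasma), -0.75 (fibroblast), -0.58 (macrophage and monocyte), -0.52 (dendritic), -0.29 (T and NK), -0.68 (mesothelial), -0.42 (acinar over others in CP+EVs), 0.78 (plasma over others in CP), 0.83 (plasma over others in CP+EVs), 0.998 (fibroblast over others in CP) and 0.68 (fibroblast over others in CP+EVs), and the arm sum was at -0.16 (plasma), 0.505 (fibroblast), -0.0189 (plasma over others in CP), -0.0959 (plasma over others in CP+EVs) and -0.38 (fibroblast over others in CP). Here, folding genes called lower numbered 0 (plasma over others in CP) and 1 (B and T and NK). Here, folding genes called higher numbered 8 (fibroblast over others in CP+EVs). Here, arm genes called higher numbered 1 (plasma, dendritic, T and NK, mesothelial and plasma over others in CP+EVs). Under median-of-ratios scaling, the folding sum was at -0.301 (plasma), -0.89 (fibroblast), -0.39 (macrophage and monocyte), -0.0723 (B), 0.73 (acinar over others in CP+EVs), 1.55 (plasma over others in CP), 1.92 (plasma over others in CP+EVs), 0.96 (fibroblast over others in CP) and 0.61 (fibroblast over others in CP+EVs), and the arm sum was at -0.14 (plasma), 0.46 (macrophage and monocyte), 0.815 (acinar over others in CP+EVs), 0.92 (plasma over others in CP), 0.51 (plasma over others in CP+EVs), -0.0229 (fibroblast over others in CP) and 0.45 (fibroblast over others in CP+EVs). In that setting, folding genes called lower numbered 0 (acinar over others in CP+EVs and plasma over others in CP) and 1 (plasma). In that setting, folding genes called higher numbered 0 (dendritic), 1 (B) and 10 (acinar over others in CP+EVs). In that setting, arm genes called higher numbered 1 (fibroblast over others in CP) and 2 (plasma over others in CP and plasma over others in CP+EVs). Single genes whose direction turned (acinar over others in CP+EVs) were Hsp90b1 at 0.35, Calr at 0.201, Pdia4 at 0.52, Derl1 at 0.63, Ern1 at 0.72, Atf6 at 0.19 and Atf4 at 0.46. Single genes whose direction turned (plasma over others in CP) were P4hb at 0.0837 and Ppp1r15a at 0.0162. With acinar RNA subtracted, the folding sum was at -0.52 (plasma), -0.84 (fibroblast), -0.49 (macrophage and monocyte), -0.64 (acinar over others in CP+EVs), 0.97 (plasma over others in CP+EVs) and 0.42 (fibroblast over others in CP+EVs), and the arm sum was at 0.27 (fibroblast over others in CP+EVs). There, folding genes called lower numbered 2 (plasma over others in CP+EVs). There, arm genes called higher numbered 0 (fibroblast over others in CP+EVs), 1 (mesothelial and plasma over others in CP+EVs) and 2 (fibroblast). With collagens out of the fibroblast gate, the folding sum was at -0.88 (fibroblast), and the arm sum was at 0.65 (fibroblast). Here, arm genes called higher numbered 2 (fibroblast). In fibroblast barcodes with no UMI of Tnc, Cthrc1 or Postn, the folding sum was at -0.71 (fibroblast), and the arm sum was at 0.51 (fibroblast). In B barcodes with an Ighd UMI, the folding sum was at -0.0497 (B). There, folding genes called higher numbered 1 (B). With a filter of mean CPM 50 and 100 UMIs, arm genes called higher numbered 0 (B and plasma over others in CP) and 1 (dendritic). With no filter beyond 1 UMI, arm genes called higher numbered 1 (mesothelial) and 2 (fibroblast, macrophage and monocyte, T and NK and fibroblast over others in CP+EVs). Without the barcodes found in both libraries, a setting chosen after seeing the data, the folding sum was at -0.56 (plasma) and 0.84 (plasma over others in CP).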
